A study of Mus musculus with 9 samples.

Results

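Vesicle miRNAs of podocytes kept in high glucose were compared with those of both control media together, within the number that each library carries in its title. All 9 libraries of the study entered the comparison, 3 from high glucose and 6 controls, of which 3 were from normal glucose and 3 from mannitol. Of 1915 mouse miRNA identifiers, 479 were listed with reads in at least 1 library, 260 were listed in all 9, and 361 had enough counts to be tested.

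The vesicles came from 1 mouse line of conditionally immortalized podocytes, the cells whose foot processes cover the capillaries of the kidney filter. Cells were differentiated for 10 days in serum-containing medium and treated for 48 h with 5.3 mM glucose (normal glucose), with 30 mM glucose (high glucose), or with 5.3 mM glucose plus 24.7 mM mannitol. The mannitol medium has the osmolality of the high glucose medium without its glucose. Vesicles were precipitated from the supernatant with a polymer, a step that also brings down RNA carried by serum. The libraries of each treatment are numbered 1 to 3 in their titles (the first without a written number), and the labels do not say what the number marks. Libraries are named below by treatment and number, such as high glucose 1.

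A miRNA pairs with target messages mainly through its seed, bases 2 to 8 of the mature strand, and miRNAs with the same seed form a family with overlapping targets. The miR-30 family is needed in podocytes, where its loss damages the filter. Cells sort miRNAs into vesicles unequally, so vesicle levels need not follow those of the cell, and in bulk vesicle RNA fewer vesicles of a kind and less of a miRNA per vesicle cannot be told apart.

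The miRNAs that carry the comparison are shown by their mature RefSeq sequences (assembly GRCm38.p6), 5′ to 3′, with the seed in capitals. The first 8 are from the 10 higher miRNAs with the smallest p, and the last 5 from the 10 lower ones.
miR-3535: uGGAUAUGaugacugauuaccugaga
miR-30a-5p: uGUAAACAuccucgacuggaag
miR-30e-5p: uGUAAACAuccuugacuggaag
miR-335-5p: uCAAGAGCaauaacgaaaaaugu
miR-101a-3p: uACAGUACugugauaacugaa
miR-542-3p: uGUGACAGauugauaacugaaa
miR-19b-3p: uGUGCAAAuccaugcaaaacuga
miR-340-5p: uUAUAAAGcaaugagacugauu
miR-543-3p: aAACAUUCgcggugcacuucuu
miR-409-3p: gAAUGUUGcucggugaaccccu
miR-433-3p: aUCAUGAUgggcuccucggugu
miR-615-3p: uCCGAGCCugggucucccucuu
miR-690: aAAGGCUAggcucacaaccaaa
miR-30a-5p and miR-30e-5p share the seed GUAAACA. The 10 miRNAs with the smallest p among the higher ones had a median GC content of 38.8% (27.3 to 47.6%). The 7 of the 10 lower ones with a sequence had a median of 54.5% (45.5 to 63.6%), against 50% for all tested miRNAs with a sequence (308 of 361).

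Total miRNA counts ran from 725211 in high glucose 1 to 2553690 in high glucose 3, with the 6 controls between 1087144 and 2269776. No count from 1 to 9 occurs in the files, so a listed 0 stands for 0 to 9 reads. Those 9 reads are worth 3.52 CPM (counts scaled to the same total of miRNA counts in every library) in high glucose 3 and 12.4 CPM in high glucose 1, the shallowest library. Levels below are CPM, and differences are log2 differences from the blocked edgeR fit with their standard errors (SE), in which 1 is a 2-fold difference. The miR-30 family, all 5 members of which were listed in every library, is not particular to podocytes. The labelled cell type was therefore not checked by a miRNA that other cells lack.

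No miRNA passed the adjusted threshold of 0.05 in the comparison of high glucose with both controls (0 of 361 tested, 0%). The smallest adjusted p was 0.187, in edgeR's quasi-likelihood test with the number as a block, and it was shared by miR-3535 and miR-30a-5p. At an unadjusted p under 0.05, 40 miRNAs (11.1%) stood apart, 18 higher (4.99%) and 22 lower (6.09%) in high glucose. Over all 361 miRNAs the median log2 difference was -0.11, and 163 (45.2%) were positive. DESeq2 on the same design called 5 miRNAs at an adjusted p under 0.05. These were miR-30a-5p, miR-335-5p and miR-3535 as higher, and miR-99a-5p and miR-3474 as lower. High glucose lay above both same-numbered controls in all 3 numbers for 15 miRNAs (4.16%) and below both for 43 (11.9%). Among the 260 miRNAs listed in every library these were 14 and 33, and 129 of the 260 differences were positive. The counts of libraries above or below controls, here and further on, compare CPM without the TMM factors by which the fit scales libraries. Those factors were 1.07, 0.858 and 0.924 in high glucose 1 to 3 and 0.885 to 1.18 in the controls. A factor under 1 raises a library in the fit, so high glucose 2 and 3 stand lower in CPM than in the fit. What this adds to the counts was not tested.

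miR-30a-5p had the highest mean level of all miRNAs and stood higher in high glucose in every number. It was at 87587, 93445 and 106766 CPM in normal glucose 1 to 3, and at 86608, 137096 and 79829 CPM in mannitol 1 to 3. In high glucose 1 to 3 it reached 107944, 179693 and 170597 CPM. The 2 deeper high glucose libraries were above every control, while high glucose 1 was below mannitol 2, so that the groups overlapped without regard to number. The log2 difference was 0.74 ± 0.18 (SE, 3 high glucose and 6 control libraries, edgeR adjusted p = 0.187), with 0.36 to 1.13 as its 95% interval in the plot of differences. Its mature sequence lies at chr1:23272274-23272295 on the plus strand, outside the other genes, miRNA genes aside, that GENCODE M21 annotates on that strand. Of the rest of the family, miR-30e-5p, from an intron of Nfyc, had a log2 difference of 0.70 ± 0.26. miR-30b-5p, miR-30c-5p and miR-30d-5p had 0.17, 0.24 and 0.26, none with an unadjusted p under 0.05. miR-30d-5p was nevertheless above both of its controls in all 3 numbers.

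miR-3535 was the miRNA whose 3 high glucose libraries all lay above all 6 controls, the only 1 of 361 (0.277%). It stood at 122, 120 and 112 CPM in normal glucose 1 to 3, at 99.3, 125 and 65.2 CPM in mannitol 1 to 3, and at 196, 198 and 165 CPM in high glucose 1 to 3. The lowest high glucose library was thus well clear of the highest control. The log2 difference was 0.93 ± 0.22 (edgeR adjusted p = 0.187). Its mature sequence, on chr1:86352062-86352087 of the minus strand, overlaps the small nucleolar RNA Gm24148 in the nucleolin gene Ncl. The files do not tell reads of a processed miRNA from fragments of that RNA.

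**Figure D1:**
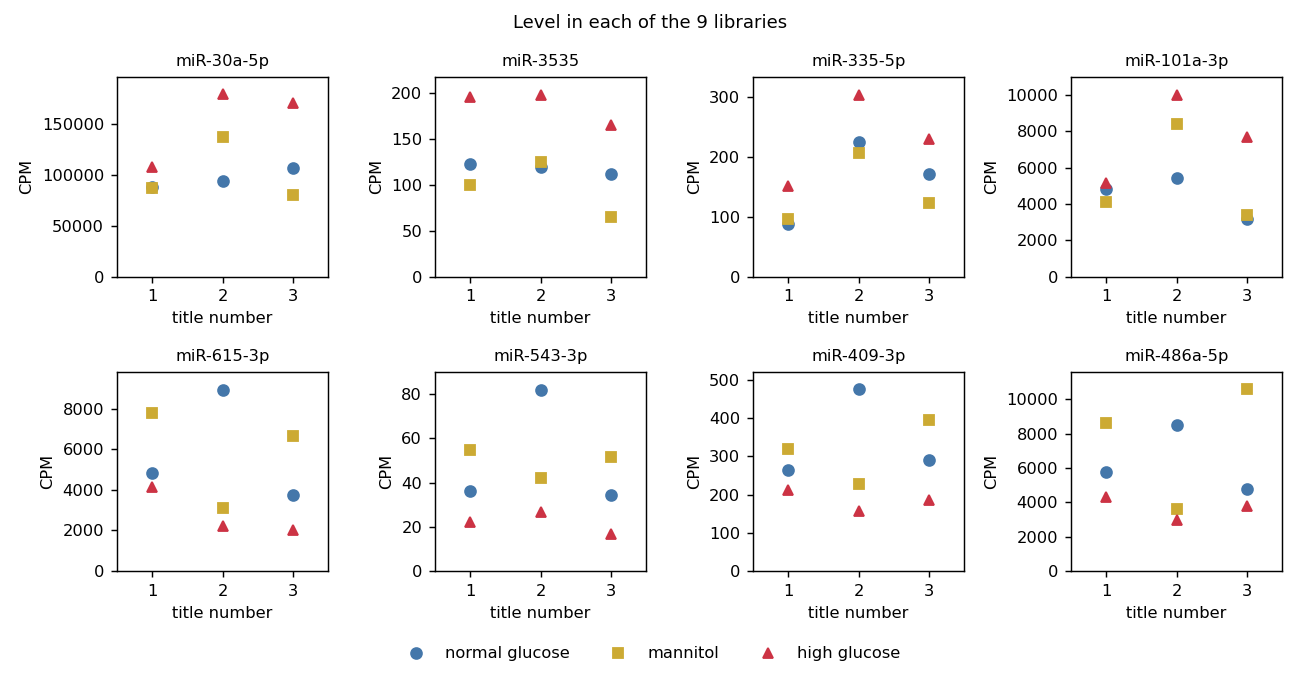
CPM (y axis, linear from 0) of 8 miRNAs in each of the 9 libraries, by title number (x axis), with circles for normal glucose, squares for mannitol and triangles for high glucose. In the top row the triangle is above both controls of its number in every panel, and in the bottom row it is below both; for miR-3535, miR-543-3p and miR-409-3p the triangles also clear all 6 controls.

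miR-335-5p, encoded in an intron of the imprinted gene Mest, showed what the block changes. Its levels were 88.3, 225 and 171 CPM in normal glucose 1 to 3, 96.3, 207 and 124 CPM in mannitol 1 to 3, and 152, 304 and 229 CPM in high glucose 1 to 3. High glucose was the highest library of each number, yet high glucose 1 lay below both controls numbered 2. The log2 difference was 0.74 ± 0.19 (edgeR adjusted p = 0.216), and its unadjusted p was 0.0018 with the number as a block and 0.0714 without it.

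The miR-101 family, known for repressing the histone methyltransferase Ezh2, had 3 of 3 tested members higher, with a median log2 difference of 0.81. miR-101a-3p stood at 4838, 5417 and 3178 CPM in normal glucose 1 to 3, at 4136, 8395 and 3374 CPM in mannitol 1 to 3, and at 5164, 10029 and 7692 CPM in high glucose 1 to 3. The excess was small in number 1 (0.26 on the log2 scale) and large in number 3 (1.45), and mannitol 2 exceeded high glucose 1 and 3. The log2 difference was 0.81 ± 0.23 for miR-101a-3p (edgeR adjusted p = 0.338) and 0.66 ± 0.22 for miR-101b-3p (edgeR adjusted p = 0.347). The third member, miR-101c, was at 1.20, with counts from 30 in mannitol 3 to 609 in mannitol 2. The sequences of miR-101a-3p and miR-101b-3p are near-identical. The sources used here do not state how reads common to members of this family were assigned, so the 3 may not be separate signals.

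Other miRNAs of low GC content stood at the higher end. miR-542-3p, on the X chromosome, was higher by 0.70 ± 0.22. It stood at 211, 529 and 364 CPM in high glucose 1 to 3 against 175, 239 and 237 CPM in normal glucose 1 to 3 and 179, 424 and 199 CPM in mannitol 1 to 3. As for miR-335-5p, the number 2 libraries were high in mannitol and high glucose. miR-340-5p, from an intron of Rnf130, differed by 0.62 ± 0.23, but high glucose 3 (134 CPM) was below normal glucose 3 (162 CPM).

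miR-19b-3p, which belongs to the oncogenic miR-17 cluster and has a copy on chromosome 14 and another on X, had a log2 difference of 1.08 ± 0.40. It was at 69.5, 52.4 and 129 CPM in normal glucose 1 to 3, at 24.1, 85.6 and 32.2 CPM in mannitol 1 to 3, and at 75.8, 135 and 177 CPM in high glucose 1 to 3. The excess in number 1 over normal glucose was slight, and much of the difference came from low mannitol libraries 1 and 3. Of the 8 tested miRNAs of this cluster and its paralogs, 6 were positive, with a median of 0.36, while miR-92a-3p stood at -0.66 ± 0.33 (unadjusted p = 0.0612 in edgeR).

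miR-192-5p, of kidney tubule and gut epithelium, stood at 4635, 2986 and 3233 CPM in high glucose 1 to 3 against 2085 to 3200 CPM in the 6 controls. Its log2 difference, 0.60 ± 0.22, rested on number 1, where it was 1.20, against 0.07 in number 2 and 0.48 in number 3. miR-194-5p, with a copy beside miR-192-5p on chromosome 19 and another on chromosome 1, had 0.57 ± 0.23. By number its difference was 1.17, 0.18 and 0.33. The miR-183 cluster, of sensory and epithelial cells, was higher in 3 of 3 members with a median of 0.47. miR-182-5p (0.47 ± 0.18) and miR-183-5p (0.39 ± 0.16) were above both controls in every number, beside 4.16% of all tested miRNAs.

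**Figure D2:**
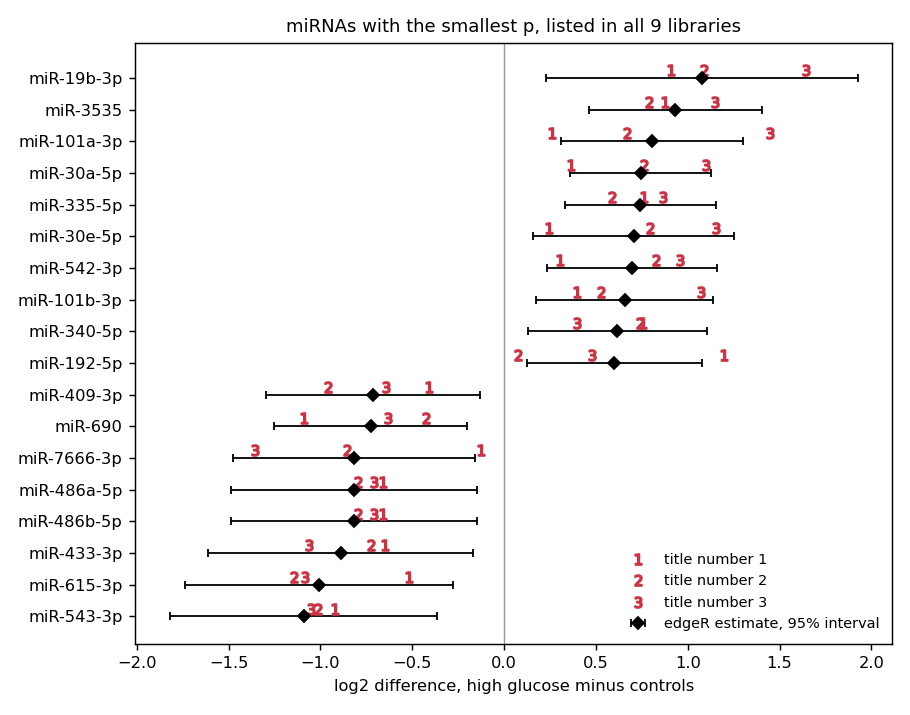
Log2 difference, high glucose minus controls (x axis), for the 18 miRNAs with the smallest p that were listed in all 9 libraries. Diamonds with bars are the edgeR estimates and 95% intervals, unadjusted for the number of miRNAs, and digits are the differences within title numbers 1, 2 and 3; every digit has the sign of its diamond, and they spread most for miR-101a-3p, miR-192-5p and miR-7666-3p.

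Of the 10 lower miRNAs with the smallest p, 3 came from the imprinted Dlk1-Dio3 locus on chromosome 12, a maternally expressed miRNA cluster active in embryo and brain. miR-543-3p (chr12:109717304-109717325, plus strand) stood at 36.4, 81.9 and 34.3 CPM in normal glucose 1 to 3, at 54.9, 42.2 and 51.5 CPM in mannitol 1 to 3, and at 22.1, 26.6 and 16.8 CPM in high glucose 1 to 3. All 3 high glucose libraries were below all 6 controls. The log2 difference was -1.09 ± 0.34 (edgeR adjusted p = 0.347) and was nearly the same in each number (-0.92, -1.02 and -1.05).

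miR-409-3p was at 265, 477 and 291 CPM in normal glucose 1 to 3, at 320, 227 and 396 CPM in mannitol 1 to 3, and at 211, 157 and 187 CPM in high glucose 1 to 3, a log2 difference of -0.71 ± 0.27. miR-433-3p was at 26.2, 25.1 and 18.8 CPM in high glucose 1 to 3 against 34.0 to 59.8 CPM in the controls, a difference of -0.89 ± 0.34. Neither overlapped with the controls. Of the 50 identifiers of this locus on the list, 25 were listed in any library and 21 were tested. Of these, 14 were lower and 7 higher, with a median of -0.58 against -0.11 for all miRNAs, and 4 of the 21 had an unadjusted p under 0.05, all lower, beside 6.09% lower over all tested miRNAs. That median depended on listed zeros: it was -0.11 when each 0 was replaced by 9 reads, against 0.003 for all miRNAs.

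miR-615-3p, encoded within Hoxc5 at chr15:103014969-103014990 on the plus strand, was at 4821, 8936 and 3763 CPM in normal glucose 1 to 3, at 7779, 3116 and 6669 CPM in mannitol 1 to 3, and at 4124, 2234 and 2034 CPM in high glucose 1 to 3. High glucose was lowest in every number, although high glucose 1 exceeded normal glucose 3 and mannitol 2. The log2 difference was -1.01 ± 0.34 (edgeR adjusted p = 0.347). The other tested members of the Hox cluster list did not share it. The list had 3 of 5 positive with a median of 0.03, which turned to -0.21 (1 of 5 positive) with a GC trend removed, and the abundant miR-10a-5p and miR-10b-5p stood at -0.16 ± 0.19 and 0.03 ± 0.19.

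miR-486a-5p and miR-486b-5p, red blood cell miRNAs with identical counts in every library, are counted here as a single signal. They stood at 5773, 8483 and 4780 CPM in normal glucose 1 to 3, at 8628, 3627 and 10582 CPM in mannitol 1 to 3, and at 4298, 2985 and 3758 CPM in high glucose 1 to 3. High glucose was lowest in each number, and the log2 difference was -0.82 ± 0.31. With that pair counted once, 4 of the 6 tested miRNAs on the blood, immune and liver list were lower, with a median of -0.26. Their summed level ran from 13495 to 25642 CPM in high glucose and from 15500 to 33520 CPM in the controls. The immune miRNA miR-142a-3p was listed at 0 in all 9 libraries. The other arm of its hairpin, miR-142a-5p, was listed in 8 and had a log2 difference of -1.09 ± 1.03. What serum RNA adds to these differences was not tested.

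The miR-99, miR-100 and miR-125 families, whose known targets include growth signalling genes, were lower in 5 of 5 members, with a median of -0.30. miR-99b-5p had -0.52 ± 0.24 and miR-99a-5p -0.38 ± 0.18, and 4 of the 5 were below both controls in every number, beside 11.9% of all tested miRNAs. miR-690, from an intron of Fgf12, was at 51.0, 31.3 and 31.7 CPM in high glucose 1 to 3 against 41.4 to 126 CPM in the controls (-0.73 ± 0.24), and miR-7666-3p differed by -0.82 ± 0.31. miR-3474 and miR-204-3p were listed at 0 in high glucose 1 and 2, and stood at 6.27 and 7.83 CPM in high glucose 3. Their controls ran from 9.44 to 33.9 CPM and from 8.44 to 30.0 CPM. Since a 0 in high glucose 1 allows 12.4 CPM, their groups cannot be said to be apart at this depth.

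In all, 9 miRNAs (2.49%) had their 3 high glucose libraries below all 6 controls. miR-99a-5p, miR-382-5p, miR-409-3p, miR-433-3p and miR-543-3p were listed in all libraries. miR-204-3p, miR-365-2-5p, miR-1306-3p and miR-3474 were listed at 0 in at least 1 high glucose library.

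The remaining lists gave medians on either side of the -0.11 of all tested miRNAs. The let-7 family, repressors of growth genes, had 4 of 9 positive with a median of -0.21. Positive members were 3 of 4 in the epithelial miR-200 family (0.32), 2 of 3 in the miR-15/16 family (0.47), 2 of 2 in the p53-induced miR-34 family (0.30) and 4 of 5 in the miR-23, miR-27 and miR-24 clusters (0.07). The only tested miR-29 member was at 0.39. Both miR-26 members were positive (0.35), as were 3 of 3 of the miR-148 and miR-152 family (0.27), and 1 of 4 in the miR-181 family (-0.11).

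Of 16 tested miRNAs that have been tied to diabetic kidney disease, 12 were positive, with a median of 0.25. miR-192-5p and miR-194-5p were the 2 with an unadjusted p under 0.05, a share close to the 11.1% of all tested miRNAs. With the GC trend described below taken out, 9 of the 16 were positive and the median was 0.02. miR-21a-5p, raised in fibrotic kidney, was at 46763, 72882 and 75817 CPM in high glucose 1 to 3 against 34139 to 76516 CPM in the controls, a difference of 0.45 ± 0.23.

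Among miRNAs of other cell types, the mesenchymal list had 6 of 8 positive (median 0.14), or 5 of 7 (0.23) with the identical miR-199a-3p and miR-199b-3p counted once, the endothelial list 2 of 2 (0.25), and the striated muscle and neural list 2 of 9 (-0.33). All 3 tested miRNAs on the kidney tubule list were positive (0.57). Their summed level was 3323 to 5008 CPM in high glucose and 2286 to 3483 CPM in the controls. A further member, miR-204-5p, was listed at 0 in all 9 libraries. The other arm of its hairpin, miR-204-3p, is not on the list. It was lower (-3.34 ± 1.29), with listed zeros in high glucose 1 and 2. The rodent Sfmbt2 intron cluster had 1 of 4 positive (-0.22), with miR-669a-3p and miR-669o-3p, which had identical counts, counted once. Its median turned to 0.08 (2 of 4 positive) when zeros were set to 9 reads. The single tested identifier attributed to rRNA fragments, miR-2137, was at -0.60 ± 0.30. What other cells add to these values was not tested.

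**Figure D3:**
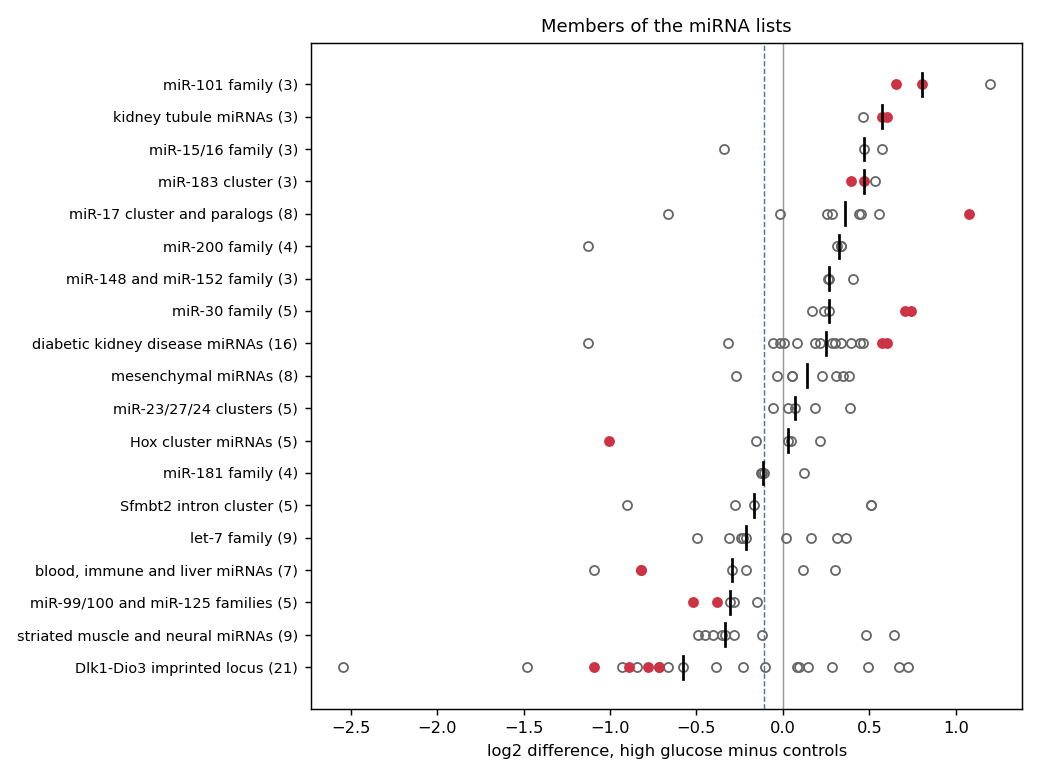
Log2 difference, high glucose minus controls (x axis), of each tested member of the lists with at least 3 tested members (number in brackets). Filled points have an unadjusted edgeR p under 0.05, black bars are list medians and the dashed line is the median of all 361 miRNAs, -0.11; the miR-101 family lies wholly to the right of 0, the miR-99/100 and miR-125 families wholly to the left, and identifiers with identical counts are drawn as separate points.

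Scaling set where 0 lies for these lists. With the authors' library constant in place of TMM factors, the median of all miRNAs moved by -0.35, to -0.46, and 1 of 40 miRNAs at an unadjusted p under 0.05 was higher. On that scale the list medians of the miR-30 (-0.07), miR-34 (-0.01), miR-148 and miR-152 (-0.09), miR-200 (-0.01), miR-23/27/24 (-0.29) and Hox (-0.32) lists were negative. The diabetic kidney disease (-0.08), mesenchymal (-0.25) and endothelial (-0.09) lists were negative too. The miR-101 (0.45), tubule (0.17), miR-183 (0.11), miR-17 (0.12) and miR-15/16 (0.12) lists stayed positive, and all 20 leading miRNAs kept their sign.

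The title number accounted for more of the variation than the treatment did. Its median share of the sum of squares of a miRNA was 36.9%, with 25% of the degrees of freedom, while high glucose took 10.4% with 12.5%. In edgeR's test of the number, 9 of 361 miRNAs changed at an adjusted p under 0.05 (2.49%), and 71 (19.7%) had an unadjusted p under 0.05. With the number in the fit the SE was smaller for 264 of 361 miRNAs, and the biological coefficient of variation was 40.5% in place of 50.4%.

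miR-335-5p, miR-340-5p, miR-542-3p and miR-30e-5p, all among the 10 leading higher miRNAs, were also among the 9 called for the number. They were 1.44, 1.57, 1.31 and 1.48 higher in number 2 than in number 1 on the log2 scale (edgeR adjusted p = 0.0189, 0.0195, 0.0348 and 0.0443). miR-450b-5p, a neighbour of miR-542-3p on X, stood at 30.5, 36.1 and 46.9 CPM in the normal glucose, mannitol and high glucose libraries numbered 1. It was at 94.7, 106 and 94.8 CPM in those numbered 2, and at 76.8, 70.1 and 115 CPM in those numbered 3. Every number 1 library was below every other library. miR-499-5p, the myosin-gene miRNA of striated muscle, was likewise 1.54 higher in number 2 than in number 1. miR-6239 was lower in number 2, by -1.74, at 36.8 to 79.3 CPM against 149 to 328 CPM in number 1. miR-5114 and miR-133a-3p made up the rest of the 9.

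GC content moved with both the treatment and the number. Over the 228 miRNAs listed in every library that have a sequence, the log2 difference between high glucose and controls ran downward along GC content with a Spearman rho of -0.609. This is a description across miRNAs, which share their libraries. The median difference was 0.31 in the 76 miRNAs of lowest GC, 0.02 in the 76 in the middle and -0.32 in the 76 of highest GC. Of the 17 higher miRNAs at an unadjusted p under 0.05 that have a sequence, 16 lay below the median GC of 50%, and of 18 lower ones 13 lay above it.

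The difference of number 2 from number 1 ran along GC content in the same way (rho = -0.687), and so did that of number 3 from number 1 (-0.466). Within single libraries, levels relative to the mean of all 9 ran upward with GC in normal glucose 1 (0.478), mannitol 1 (0.679), mannitol 3 (0.612) and high glucose 1 (0.237). They ran the other way in normal glucose 2 and 3 (-0.215 and -0.303), mannitol 2 (-0.537) and high glucose 2 and 3 (-0.675 and -0.516). The 76 miRNAs of lowest GC stood highest relative to the 76 of highest GC in the high glucose library of each number. A GC trend could be taken out only for the 308 of 361 tested miRNAs with a sequence. Those without one, among them miR-486a-5p, miR-486b-5p, miR-7666-3p and miR-30d-5p, were left uncorrected, also within lists. With a GC trend taken out of each library, miR-3535 (0.62), miR-30a-5p (0.63), miR-543-3p (-1.22) and miR-615-3p (-0.71) kept most of their log2 difference. miR-335-5p (0.20), miR-542-3p (0.20) and miR-340-5p (0.03) kept little, miR-101a-3p kept 0.33, and none of the 9 calls for the title number was made. Of the list medians, those of the let-7 (-0.49, 1 of 9 positive) and Hox families lay lower without the trend. Those of the miR-200 (0.02), miR-26 (0.03), miR-29 (0.15), miR-101 (0.44) and miR-183 (0.26) lists lay closer to 0. The median of the blood, immune and liver list also lay lower, at -0.70 (1 of 7 positive) against -0.30. Here miR-486a-5p and miR-486b-5p were both counted, and 3 of the 7 members had a sequence.

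**Figure D4:**
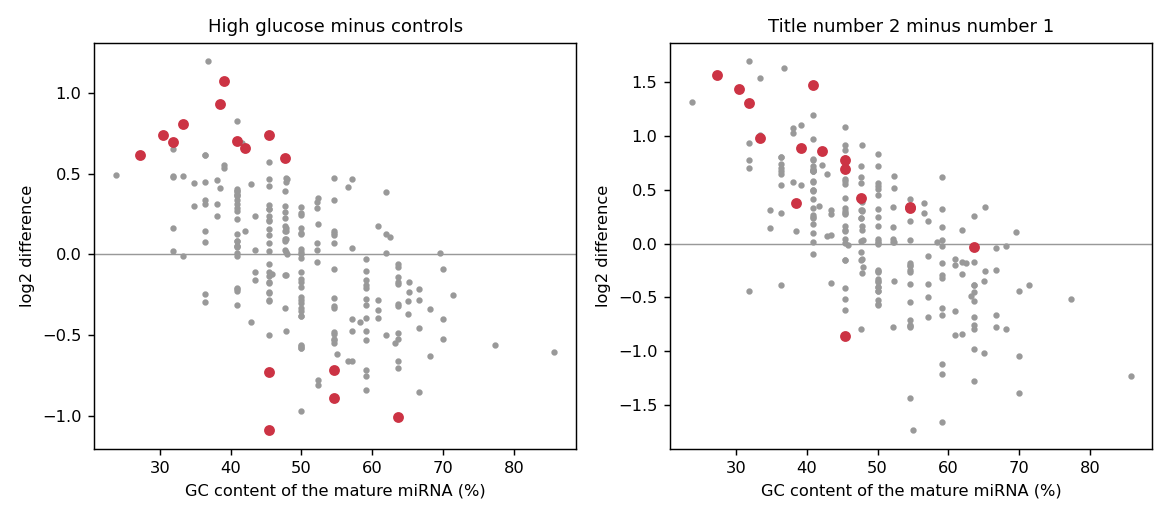
Log2 difference (y axis) against GC content of the mature sequence in percent (x axis) for 228 miRNAs, for high glucose minus controls on the left and title number 2 minus number 1 on the right. Red points are the leading miRNAs with a sequence that were listed in all libraries; both clouds slope down, with rho of -0.609 and -0.687.

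High glucose was also set against each control alone, and the 2 controls against each other. All these comparisons share the high glucose or control libraries, so their values are given side by side. Against normal glucose alone, 19 of 361 miRNAs (5.26%) stood apart at an unadjusted 0.05, and the lowest adjusted p in edgeR was 0.743. Against mannitol alone there were 52 (14.4%) and 0.143, and between mannitol and normal glucose 17 (4.71%) and 0.285. No miRNA passed the adjusted threshold in any of the 3. miR-3535 stood at 0.75 ± 0.26 against normal glucose and 1.14 ± 0.26 against mannitol, and miR-30a-5p at 0.73 ± 0.23 and 0.75 ± 0.23. miR-19b-3p was at 0.66 ± 0.40 and 1.64 ± 0.41, with -0.97 between mannitol and normal glucose. miR-543-3p (-1.08 and -1.10) and miR-615-3p (-1.05 and -0.97) differed by similar amounts from each control. Spearman rho of the log2 difference with GC content was -0.448 against normal glucose, -0.654 against mannitol and 0.439 for mannitol against normal glucose.

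Whether the difference itself varied between numbers was tested with an interaction term. It marked 11 miRNAs (3.05%) at an unadjusted 0.05, and the lowest adjusted p in edgeR was 0.468. The first 3, miR-495-3p, miR-493-3p and miR-410-3p, are of the Dlk1-Dio3 locus, and each was listed at 0 in high glucose 1 alone. Their same-numbered controls were at 12.8 to 26.3 CPM, above the 12.4 CPM that a 0 allows there.

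In these libraries, counts were spread less evenly over miRNAs in high glucose, but no measure of this passed the adjusted threshold. The 10 most abundant miRNAs held 56.0, 61.2 and 61.8% of counts in high glucose 1 to 3, against 51.6 to 58.5% in the controls. The mean was 59.7% ± 3.18 (SD, n = 3) against 54.7% ± 2.59 (SD, n = 6). The difference within number was 4.98 percentage points (two-sided exact permutation within number, p = 0.0741, and 0.111 after adjustment over 3 measures). miRNAs at 10 CPM or more numbered 296, 288 and 305 in high glucose 1 to 3, fewer than in both controls of each number. All 296 miRNAs listed in high glucose 1 counted there, since a listed 0 allows 12.4 CPM in that library, so its count was set by depth. The mean difference was -20.3 miRNAs (two-sided exact permutation p = 0.037, the smallest that the 27 assignments allow, and 0.111 after adjustment over 3 measures). At 20 CPM or more, above that limit, it was -10.7 miRNAs (exact permutation p = 0.037). The mean GC content weighted by counts was 45.3% in high glucose and 46.1% in the controls (difference -0.723, exact permutation p = 0.111). Without miR-30a-5p, the 10 most abundant of the rest held 53.7, 55.5 and 56.3% of the remaining counts in high glucose 1 to 3 and 49.6 to 54.5% in the controls.

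**Figure D5:**
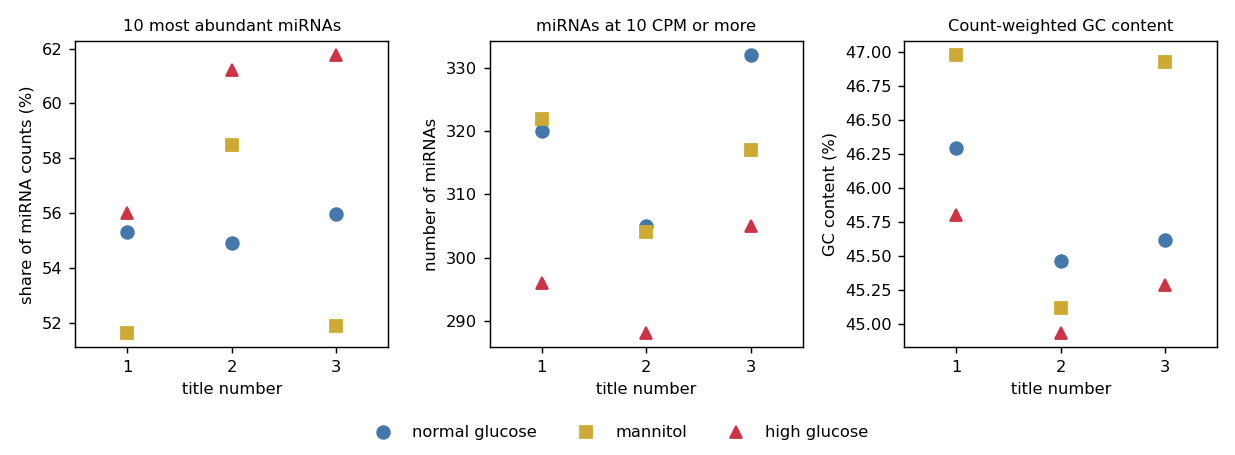
Share of counts held by the 10 most abundant miRNAs, number of miRNAs at 10 CPM or more, and GC content weighted by counts (y axes, which do not start at 0), by title number (x axis). High glucose (triangles) has the highest share, the fewest miRNAs and the lowest GC content of each number, with 45.8, 44.9 and 45.3% GC in numbers 1 to 3.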

How the data were processed

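Per the file headers, each deposited table gives a total count of reads and a normalized value for 1915 miRNA identifiers. The deposited counts are whole numbers and were tested as such. The deposited normalized values, RPM on a scale set by the authors, came to each count over 1 constant per library, largest in high glucose 3. They served only to read that constant. The submitters' processing notes name bcl2fastq, BWA and the build mm10, without versions or settings.

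Treatment came from the treatment label and the number from the title. Nothing in the labels says that libraries came from separate cultures, and the p-values therefore reflect the spread among these samples alone, possibly technical. edgeR 4.0.16 in R 4.3.3 was used with TMM scaling, filtering by treatment, a robust quasi-likelihood fit of number plus high glucose, and Benjamini-Hochberg adjustment over 361 miRNAs. Other contrasts and the interaction used all 9 libraries. Library measures were tested by exact permutation within number (27 assignments). The fits were tested on simulated data. Alternatives used DESeq2 1.42.0, limma 3.58.1 (voom), other scalings, no filter, zeros set to 9 reads, a GC trend removed, and libraries or numbers left out. The GC measure weighted by counts and the shares without miR-30a-5p were added after seeing the data.

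Named miRNAs were the 10 with the smallest p in each direction (none passed), the 2 most abundant tested members of each list, the 10 most abundant miRNAs, and up to 5 leads of the other tests. Others named, such as those whose groups did not overlap, were chosen after their values were seen. The members, lists and comparison were chosen with earlier results of these data known. Mature sequences (308 of 361 tested) and positions are RefSeq's on GRCm38.p6, and host genes are from GENCODE M21, on the same assembly.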

Additional observations from a re-analysis of the deposited data

Results flagged for a closer look

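Single control libraries stood far from the other 5 for 11 of 72 miRNA and group sets examined. The rule marks about 1 in 20 sets of independent, normally spread values. These miRNAs share their libraries, so the 11 cannot be weighed against that rate. Mannitol 2 held 5 of them. There miR-542-3p was at 424 CPM (next highest control 239), miR-101b-3p at 1407 CPM (766), miR-34c-5p at 3525 CPM (1709), miR-27b-3p at 46854 CPM (32009) and miR-152-3p at 11127 CPM (7286). Normal glucose 3 was high for miR-143-3p (2861 CPM, next 1491), miR-126a-3p (790 CPM, next 390) and miR-126a-5p (34.3 CPM, next 8.27). Mannitol 1 was high for miR-2137 (1395 CPM, next 607) and miR-709 (283 CPM, next 107), and normal glucose 1 for miR-182-5p (10062 CPM, next 8234). Groups of 3 high glucose libraries were too small to examine.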

How the results depend on the processing

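No library, number, scaling or test left out or exchanged here gave more than 9 calls for high glucose against both controls, and the direction of all 20 leading miRNAs held in all 21 alternatives. Those 20 were picked by smallest p in these data. The alternatives reuse most of the same libraries, so the held directions are not independent checks. Calls numbered 9 without an expression filter and 5 in DESeq2, against 0 in the reported fit, and 0 in each of the other alternatives, leaving out each library included. The 9 were miR-30a-5p, miR-101a-3p, miR-19b-3p, miR-486a-5p, miR-486b-5p, miR-615-3p, miR-101c, miR-3535 and miR-6538, the last listed in 3 controls and at 0 in high glucose. The count at an unadjusted p under 0.05 was 40 as reported, 17 without high glucose 3, 20 without mannitol 1, 22 without high glucose 2, 26 without mannitol 3 and 66 without mannitol 2. It was 22, 30 and 13 without numbers 1, 2 and 3. With the zeros set to 9 reads, 182 of 361 differences were positive.

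Without the replicate block the count of calls was also 0 (smallest adjusted p 0.648 in edgeR), and 25 miRNAs had an unadjusted p under 0.05, of which 23 were among the 40. The numbers are not shown to pair the libraries. Deviations of same-numbered libraries from their group means correlated at -0.058 to 0.521 (7 of 9 pairs over 0.1), and those of differently numbered libraries at -0.451 to 0.199 (3 of 18 over 0.1). A hint of pairing thus comes from the data, not from the design.

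Calls for the title number, 9 as reported, were 44 in DESeq2, 32 without a filter, 14 with zeros set to 9 reads, 2 with the library constant and 0 with the GC trend removed. They were 0 without number 1 or without number 2, and 0 to 23 when a library was left out (23 without mannitol 3). High glucose against mannitol gave 4 calls without a filter and 0 to 68 when a library was left out, 68 without mannitol 2 and 17 without normal glucose 2. High glucose against normal glucose gave 2 without a filter and 0 to 7 with a library left out (7 without mannitol 2). Mannitol against normal glucose gave 1 with the library constant, 3 without a filter and 0 to 9 with a library left out (9 without mannitol 2). The interaction gave 1 without a filter. Where the library left out belongs to a compared group, that group rests on 2 libraries. The cause of these moves was not tested.

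The share of the 10 most abundant miRNAs differed by 4.98 points with p = 0.0476 without the replicate block, and that of the 20 most abundant by 2.81 points with p = 0.037 (exact permutation). The number of miRNAs at 10 CPM or more differed by -20.3 with p = 0.0595 without the block, and by -18, -22.2 and -20.8 without numbers 1, 2 and 3, each with p = 0.111, the smallest that 9 assignments allow (exact permutation).

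Of 1449 values of 69 named miRNAs under the alternatives, 94 (28 miRNAs, none among the 20 leads) changed sign. Without the replicate block these were miR-15a-5p (0.077), miR-499-5p (0.054) and miR-410-3p (0.062). In DESeq2, with its size factors in edgeR and without a filter, miR-34a-5p was at -0.027, -0.020 and -0.0085. With limma-voom they were miR-15a-5p (0.70), miR-499-5p (0.052) and miR-410-3p (0.28), and with zeros set to 9 reads miR-15a-5p (0.46) and miR-410-3p (0.22). With the GC trend removed they were miR-200b-3p (-0.040), miR-25-3p (0.016), miR-10b-5p (-0.14), miR-26a-5p (-0.019), miR-199a-3p (-0.20), miR-127-3p (0.13) and miR-450b-5p (-0.036). With the library constant they were miR-30d-5p (-0.067), miR-200b-3p (-0.0014), miR-200a-3p (-0.0094), miR-34a-5p (-0.26), miR-10b-5p (-0.32), miR-24-3p (-0.29), miR-26a-5p (-0.13), miR-148a-3p (-0.11), miR-152-3p (-0.091), miR-143-3p (-0.12), miR-199a-3p (-0.30), miR-126a-3p (-0.075), miR-126a-5p (-0.094) and miR-378a-3p (-0.21). Leaving out number 1 turned miR-25-3p (0.057), miR-15a-5p (0.41), miR-10b-5p (-0.041), miR-181a-5p (0.12), miR-181b-5p (0.092), miR-126a-3p (-0.36), miR-126a-5p (-0.94), miR-499-5p (0.14), miR-493-3p (0.071) and miR-410-3p (0.36). Leaving out number 2 turned miR-25-3p (0.063), miR-34a-5p (-0.062), miR-10a-5p (0.012), miR-122-5p (0.045) and miR-499-5p (0.030), and number 3 miR-34a-5p (-0.14), miR-24-3p (-0.10), miR-199a-3p (-0.13), miR-122-5p (0.10) and miR-709 (0.16).

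With a library left out, the range crossed 0 for miR-25-3p (-0.10 to 0.046), miR-15a-5p (-1.47 to 0.39), miR-34a-5p (-0.20 to 0.24), miR-10b-5p (-0.084 to 0.11), miR-24-3p (-0.093 to 0.23), miR-181a-5p (-0.32 to 0.077), miR-181b-5p (-0.25 to 0.050), miR-143-3p (-0.046 to 0.42), miR-199a-3p (-0.12 to 0.20), miR-126a-3p (-0.41 to 0.62), miR-126a-5p (-1.04 to 1.69), miR-122-5p (-0.82 to 0.12), miR-127-3p (-0.26 to 0.055), miR-669c-5p (-0.37 to 0.057), miR-499-5p (-0.16 to 0.16), miR-709 (-0.52 to 0.19), miR-3473b (-0.66 to 0.0083), miR-493-3p (-1.42 to 0.024) and miR-410-3p (-1.14 to 0.32). Without high glucose 1, miR-192-5p was at 0.23, against 0.60 as reported, and without high glucose 3 miR-101a-3p was at 0.45, against 0.81. Depth limits all miRNAs near 12.4 CPM, where a listed 0 in high glucose 1 cannot be told from a low level.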
